A study of Mus musculus with 8 samples.

Results

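The transcripts described here are those of 10 genes that define platelets, read in RNA-seq libraries of Tregs sorted as CD4+CD25+ cells from mouse peripheral blood. The genes were Pf4, Ppbp, Itga2b, Itgb3, Gp1bb, Gp9, Gp5, Treml1, Clec1b and Nrgn. They were chosen by name as platelet genes, with earlier results of these data known. Each was found by symbol among the 56980 genes of the deposited count table. All 10 were in the table, and 9 of them were among the 21991 genes that passed the filter on low counts and were tested.

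The libraries came from male C57BL/6j mice that were 8 weeks old when purchased, with 4 HADA and 4 control libraries. HADA stands for high-altitude de-acclimatization, and these mice were kept for 28 days in low-pressure air equivalent to 6000 m of altitude before their return to normoxia. Control mice stayed in normoxia throughout. Erythrocytes were lysed before the sort, no further genotype or treatment separated the groups, and the day of the sort for RNA-seq is not given in the sources used here. Nothing in these sources says that each library came from its own animal, so p-values measure the spread between these libraries, which may be technical.

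Platelets are cell fragments without a nucleus that megakaryocytes release into the blood, and they carry RNA inherited from the megakaryocyte. Their α-granules store chemokines, their surface integrin binds fibrinogen, and a separate glycoprotein complex holds them to von Willebrand factor on an injured vessel wall. Platelets also attach to leukocytes through P-selectin. In a bulk library, fewer cells of a type and less RNA per cell cannot be told apart.

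The promoters of 4 members are printed because they belong to the chemokine pair with the most platelet counts and to the receptor complex that holds Gp9, whose groups did not overlap, and Gp5, whose counts came mostly from a few libraries. Each is the 250 bases upstream of the start of the canonical transcript in GENCODE vM39, read 5′ to 3′ on the strand of the gene from the GRCm39 genome, for Pf4 on the plus strand at chr5:90920007-90920256, Ppbp on the plus strand at chr5:90916121-90916370, Gp9 on the plus strand at chr6:87754797-87755046 and Gp5 on the minus strand at chr16:30129632-30129881. Capitals mark words of the kinds that GATA and ETS factors bind, which are the DNA-binding families of the megakaryocyte regulators GATA1 and FLI1. The GATA kind was searched as AGATAA, in the form with a different last letter as AGATAG, and in the forms with a different first letter as TGATAA or, with both letters different, as TGATAG. The ETS kind was searched as AGGAAG and, in the form with a different first letter, as CGGAAG. Both strands were read, and no GATA word overlaps an ETS word in the windows printed.
Pf4: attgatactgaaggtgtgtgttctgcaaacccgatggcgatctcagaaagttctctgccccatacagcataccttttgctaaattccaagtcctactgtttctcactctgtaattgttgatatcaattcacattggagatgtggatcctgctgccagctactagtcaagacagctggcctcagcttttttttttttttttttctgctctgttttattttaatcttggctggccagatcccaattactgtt
Ppbp: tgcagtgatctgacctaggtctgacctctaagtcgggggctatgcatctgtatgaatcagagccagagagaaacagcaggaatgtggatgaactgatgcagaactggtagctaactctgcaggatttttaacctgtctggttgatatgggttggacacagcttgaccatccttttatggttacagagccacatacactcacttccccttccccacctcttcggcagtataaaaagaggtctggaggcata
Gp9: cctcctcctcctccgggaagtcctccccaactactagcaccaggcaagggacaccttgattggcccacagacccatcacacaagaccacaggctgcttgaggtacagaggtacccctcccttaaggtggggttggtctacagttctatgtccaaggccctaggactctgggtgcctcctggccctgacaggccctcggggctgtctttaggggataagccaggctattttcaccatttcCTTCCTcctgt
Gp5: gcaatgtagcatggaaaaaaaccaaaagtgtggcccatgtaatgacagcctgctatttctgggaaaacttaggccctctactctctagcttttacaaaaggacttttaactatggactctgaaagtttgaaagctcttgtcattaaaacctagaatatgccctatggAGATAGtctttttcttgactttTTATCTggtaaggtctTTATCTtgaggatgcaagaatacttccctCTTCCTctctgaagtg

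Neither chemokine promoter held one of these words in this window. The Gp9 window held 1 ETS word, 11 bases from the transcript start, and the Gp5 window held 3 GATA words and 1 ETS word. Over the 10 members, 40.0% of the windows held a GATA word, against 26.2% of the 21631 promoters of protein-coding genes, 40.0% held an ETS word, against 39.2%, and both kinds stood together in 2 of 10, against 9.27%. A match is a description of letters, and a window without one says only that these letters are not in it.

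Depth differed between the libraries before any platelet gene is considered. Total counts lay between 22929193 and 28240337 in HADA and between 1477431 and 22584062 in control, where the smallest total was that of control replicate 1. Levels are given in CPM, the count scaled to the size of its library and normalized with TMM. A floor of 3 counts was worth 0.118 to 0.1804 CPM in HADA, 0.0939 to 0.174 CPM in control replicates 2 to 4 and 1.86 CPM in control replicate 1, and a level printed below its library's floor rests on fewer than 3 counts. Reads were counted over the whole span of a gene, introns included. A density of raw counts was read on 1393 olfactory and vomeronasal receptor genes, a set of sensory genes used as a background for such spans. Control replicates 2 and 3 held 10.8 and 8.25 counts per kb. HADA held 2.0 to 5.34, control replicate 4 held 3.48 and control replicate 1 held 0.0793. These raw densities also depend on depth. Scaled to library size, as CPM per kb without TMM, they were 0.745 and 0.365 in control replicates 2 and 3. HADA lay at 0.0753 to 0.193, control replicate 4 at 0.161 and control replicate 1 at 0.0537. Results are therefore given also without control replicate 1 and without control replicates 2 and 3 where these change them.

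Pf4 and Ppbp, the chemokines CXCL4 and CXCL7 of the platelet α-granule, were the members with the most counts, in total and per kb of span, over the 8 libraries together. Both lie on the plus strand of chromosome 5, Ppbp (ENSMUSG00000029372) at 90916377 to 90917922 and Pf4 (ENSMUSG00000029373) at 90920294 to 90921242 in GRCm39, with 2371 bases between them. Pf4 was read at 568, 120, 451 and 299 CPM in HADA replicates 1 to 4 and at 78.9, 39.6, 48.2 and 133 CPM in control replicates 1 to 4, normalized with TMM. HADA replicate 2 lay below control replicate 4, so that the groups overlapped through that library alone.

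Pf4 averaged 359 ± 194 CPM (SD, n = 4) over the HADA libraries, against 74.9 ± 42.2 CPM (SD, n = 4) over the controls, a log2 fold change of 2.26 with a standard error of 0.77. With edgeR's quasi-likelihood test and Benjamini-Hochberg adjustment over all genes tested, the adjusted p was 0.117, which did not pass. The call depended on the libraries and on the tool. Without control replicate 1 the log2 fold change was 2.41 at an edgeR adjusted p of 0.0474, and without control replicates 2 and 3 it was 1.77 at 0.427. DESeq2 on all 8 libraries gave an adjusted p of 0.00960.

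Ppbp spread far more widely than its neighbour on the chromosome. Its levels were 1007, 126, 541 and 891 CPM in HADA and 305, 1.0, 3.70 and 96.1 CPM in control. Control replicates 2 and 3 held hardly any Ppbp, whereas control replicate 1 lay above HADA replicate 2. The log2 fold change was 2.66 with a standard error of 1.38 (edgeR, adjusted p = 0.224), and it did not pass in DESeq2 either (adjusted p = 0.0557). It was 4.35 without control replicate 1 (edgeR, adjusted p = 0.0726) and 1.69 without control replicates 2 and 3 (edgeR, adjusted p = 0.501).

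**Figure D1:**
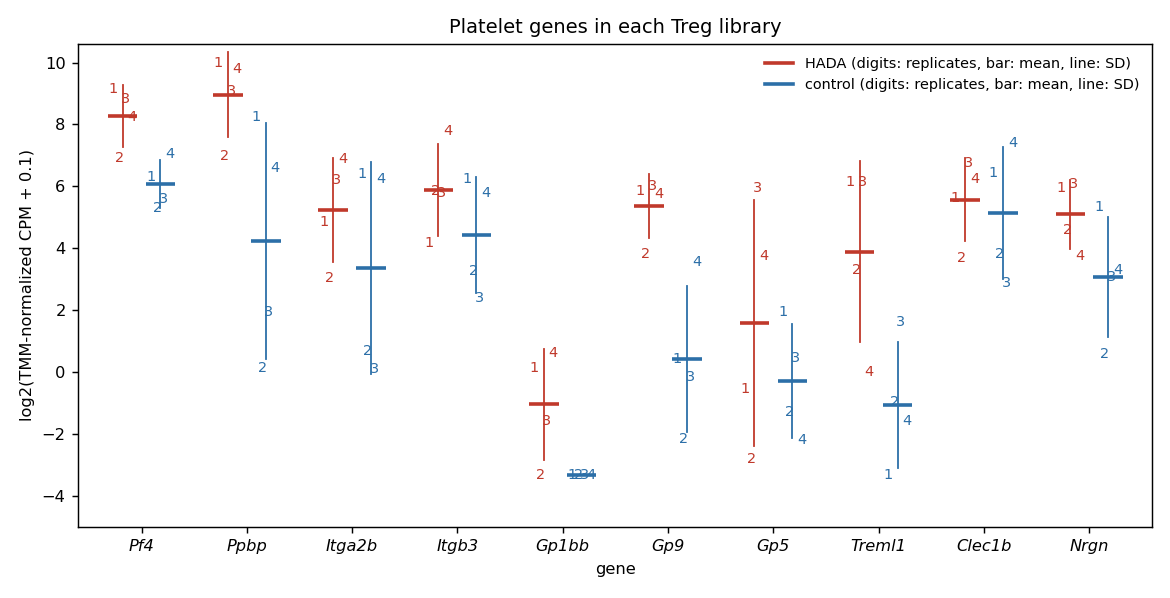
Level of each of the 10 platelet genes in each library, as log2(CPM + 0.1) on the vertical axis with the genes along the horizontal axis, HADA and control in separate colours, each digit the replicate number, short bars the group means and lines 1 SD. The 4 HADA digits of Gp9 stand above the 4 control digits, and in the other genes the groups overlap or, for Gp1bb, reach 0 in both.

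The fibrinogen receptor of platelets is the integrin αIIbβ3, and neither of its subunit genes separated the groups. Itga2b, the αIIb subunit gene and a marker of the megakaryocyte lineage (ENSMUSG00000034664, chromosome 11, 102344123 to 102360948, minus strand), was at 28.4, 8.21, 73.7 and 117 CPM in HADA and at 84.5, 1.50, 0.978 and 76.1 CPM in control. Control replicates 1 and 4 were thus above 3 of the 4 HADA libraries, and control replicates 2 and 3 were the lowest of the 8. Its log2 fold change was 0.48 with a standard error of 1.31 (edgeR, adjusted p = 0.815). It was 1.21 without control replicate 1 (edgeR, adjusted p = 0.552) and -0.49 without control replicates 2 and 3 (edgeR, adjusted p = 0.869).

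Itgb3, the β3 subunit gene, which also pairs with the αv integrin on other cells (ENSMUSG00000020689, chromosome 11, 104498826 to 104561302, plus strand), was at 17.8, 57.2, 54.5 and 222 CPM in HADA and at 75.8, 9.58, 5.14 and 55.1 CPM in control. HADA replicate 4 was the highest of the 8 for both subunits, and control replicates 2 and 3 were the lowest for Itgb3 too. Its log2 fold change was 1.28 with a standard error of 1.05 (edgeR, adjusted p = 0.415), which became 0.33 without HADA replicate 4, 2.03 without control replicate 1 and 0.44 without control replicates 2 and 3.

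The von Willebrand factor receptor, GPIb-IX-V, was represented among the members by Gp9, Gp5 and Gp1bb. The gene of its GPIb α subunit, Gp1ba, stands in the list of other surface receptors and is named after its values were seen. It had 12, 16, 9 and 4 counts in HADA and 0, 23, 9 and 8 in control, and it was not tested. No other gene covers its span. Gp9, the small subunit needed for the complex to reach the surface (ENSMUSG00000030054, chromosome 6, 87755054 to 87756750, plus strand), was at 58.0, 13.9, 65.0 and 54.2 CPM in HADA and at 1.24, 0.125, 0.803 and 11.6 CPM in control. It was the only member whose 4 HADA libraries all stood above its 4 control libraries, although HADA replicate 2 and control replicate 4 were close. Among all genes tested, 9.13% stood apart in this way with HADA higher and 5.70% with HADA lower.

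Gp9 averaged 47.8 ± 23.1 CPM (SD, n = 4) over the HADA libraries, against 3.45 ± 5.48 CPM (SD, n = 4) over the controls. The log2 fold change of Gp9 was 3.76 with a standard error of 1.29, and it did not pass in edgeR (adjusted p = 0.118). The DESeq2 adjusted p was 0.00712. Leaving out control replicate 4, the highest control, raised the log2 fold change to 6.30, and leaving out control replicates 2 and 3 lowered it to 2.84 (edgeR, adjusted p = 0.438).

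Gp5, the subunit that thrombin cleaves from the platelet surface (ENSMUSG00000047953, chromosome 16, 30126503 to 30129597, minus strand), was at 0.592, 0.042, 61.1 and 13.3 CPM in HADA and at 3.73, 0.313, 1.26 and 0.116 CPM in control. HADA replicate 3 alone held 1035 counts of Gp5, against 15 and 1 in HADA replicates 1 and 2. The log2 fold change was 4.03 with a standard error of 1.76 (edgeR, adjusted p = 0.173), and the DESeq2 adjusted p was 0.0221. It was 2.22 without HADA replicate 3 and 4.26 without HADA replicate 4. Without control replicate 1 it was 5.17, and without control replicates 2 and 3 it was 3.49.

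Gp1bb, which encodes the GPIb β subunit (ENSMUSG00000050761, chromosome 16, 18439067 to 18441153, minus strand), was barely readable in these counts. It had 25, 0, 4 and 24 counts in HADA and 0 in every control library, and it was not tested. Other genes, among them Septin5, cover 92.9% of its span, and a gene whose span is fully covered was listed at 0 in every library, as all 1077 such protein-coding genes were. No fold change is given for Gp1bb, since most of its span was not counted for it.

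Treml1 encodes TLT-1, a receptor kept in the α-granule membrane and brought to the surface on activation (ENSMUSG00000023993, chromosome 17, 48666944 to 48674204, plus strand). It was at 69.9, 9.67, 71.2 and 0.902 CPM in HADA and at 0, 0.407, 2.97 and 0.232 CPM in control. HADA replicate 4 lay below control replicate 3, and the 0 of control replicate 1 stands against a floor of 1.86 CPM in that library.

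The log2 fold change of Treml1, 5.25 with a standard error of 1.52, was the largest of the members, and it did not pass in edgeR (adjusted p = 0.0857). It passed without control replicate 1 (log2 fold change 5.10, edgeR adjusted p = 0.0495) and in DESeq2 (adjusted p = 6.06e-04), and without control replicates 2 and 3 it was 7.69 at an edgeR adjusted p of 0.282. All 4 HADA libraries and 2 control libraries reached the 0.439 CPM that the filter asks of 4 libraries.

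Clec1b did not share this direction. It encodes CLEC-2, the platelet receptor for podoplanin (ENSMUSG00000030159, chromosome 6, 129374260 to 129386298, plus strand). Its levels were 49.2, 12.9, 108 and 74.6 CPM in HADA and 86.4, 14, 7.30 and 170 CPM in control, with the highest of the 8 in control replicate 4. The log2 fold change was -0.18 with a standard error of 1.04 (edgeR, adjusted p = 0.915), and it turned to 0.83 without control replicate 4 and to -1.06 without control replicates 2 and 3.

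Nrgn encodes neurogranin, a calmodulin-binding protein named for neurons whose transcript is also abundant in platelets (ENSMUSG00000053310, chromosome 9, 37455788 to 37464200, minus strand). It was at 61.6, 24.1, 67.7 and 13.3 CPM in HADA and at 40.4, 1.41, 8.35 and 9.74 CPM in control. The lowest HADA library lay above 3 of the 4 controls, and control replicate 1 was higher than HADA replicates 2 and 4. Its log2 fold change was 1.50 with a standard error of 1.03 (edgeR, adjusted p = 0.334). It was 2.80 without control replicate 1 (edgeR, adjusted p = 0.0503) and 0.76 without control replicates 2 and 3. Another gene on the opposite strand overlaps part of the Nrgn span, and counts there are uncertain.

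None of the 9 members tested passed in edgeR, which here asks for an adjusted p below 0.05 together with a log2 fold change beyond 1, against 1.65% of all genes tested with HADA higher and 0.477% with HADA lower. A p that misses the threshold does not show that the levels were alike. At an unadjusted p below 0.05, 4 members passed, Pf4, Gp9, Gp5 and Treml1, all with HADA higher, against 12% of all genes tested with HADA higher and 14.7% with HADA lower. In DESeq2 the same 4 members passed, against 11.2% of all genes with HADA higher and 19.3% with HADA lower. Without control replicate 1, edgeR called 2 members, Pf4 and Treml1, against 15.5% of all genes with HADA higher. On all 8 libraries, limma on log2(CPM + 1) called Gp9, against 3.70% of all genes with HADA higher.

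Of the 9 members, 8 had a log2 fold change above 0, against 50.2% of all genes tested, and their median was 2.26, against 0.01 over all genes tested. These counts describe the 9 members that passed the filter and not all 10. The members were chosen with earlier results of these data known, so the counts are a description and no test. Marker lists of other blood cells, described below, also had medians above 0, except the erythroid list at -3.65. Their medians were 1.83 for Treg, 1.24 for myeloid and 0.60 for B cell markers. Cytotoxic T and NK markers had a median of 3.87, and basophil and mast cell markers one of 2.72. Without control replicates 2 and 3 the median of these 9 members was 1.69, with 0.21 for all genes. The other lists then had medians of 1.47 for Treg, 0.44 for myeloid, -0.08 for B cell and -4.39 for erythroid markers. Those of cytotoxic T and NK markers and of basophil and mast cell markers were 3.36 and 1.92. When the receptor gene density of each library was subtracted from the counts, the 9028 genes that could still be tested had a median of 1.0, and the 9 members one of 1.37. This fit has another set of genes and its own normalization, so these medians cannot be set directly against those before the subtraction. The share of counts on the members was higher in HADA by 0.0672 percentage points before the subtraction and by 0.0723 after it.

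**Figure D2:**
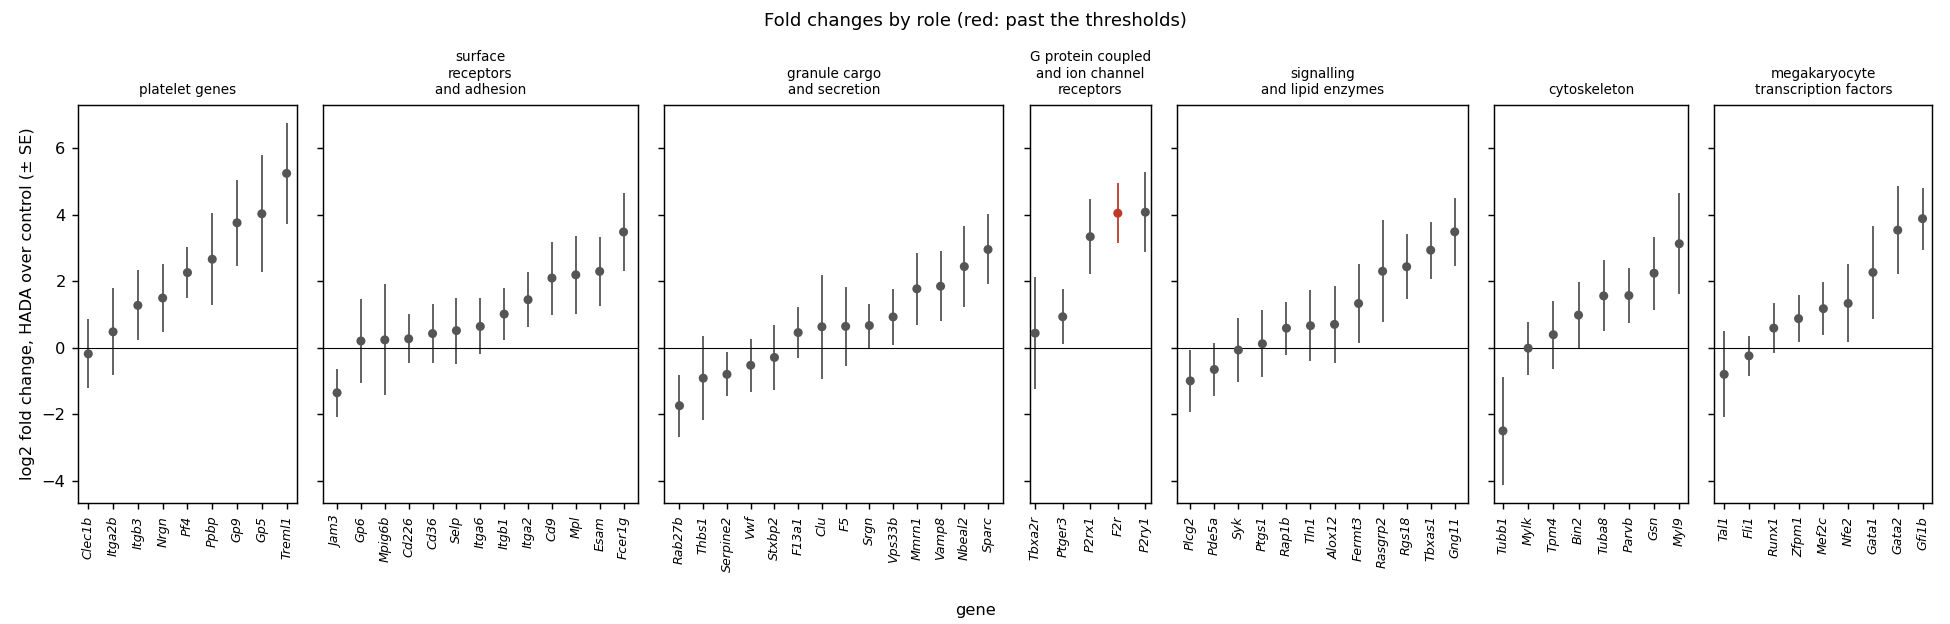
Log2 fold change of HADA over control from edgeR on the vertical axis, with the genes along the horizontal axis. The platelet members and the other platelet and megakaryocyte genes are grouped by role, with bars of 1 standard error and red for a gene past the thresholds. F2r at 4.05 is the single red point, and the members reach from -0.18 for Clec1b to 5.25 for Treml1.

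As a share of all counts, the 10 genes held 0.167%, 0.0387%, 0.1002% and 0.106% of HADA replicates 1 to 4 and 0.0736%, 0.0150%, 0.00997% and 0.0441% of control replicates 1 to 4. The share averaged 0.103% ± 0.0525 (SD, n = 4) over the HADA libraries, against 0.0357% ± 0.0294 (SD, n = 4) over the controls. HADA replicate 2 lay below control replicates 1 and 4, so the groups overlapped. Even the shallow control replicate 1 had a 95% Wilson interval of 0.0694% to 0.0781%, which lies apart from the 0.0379% to 0.0395% of HADA replicate 2. Such intervals treat each count as an independent draw and leave out the spread between libraries. Copies of a cDNA molecule are counted separately, so the intervals may be too narrow.

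The mixture of platelet transcripts was not the same in every library. Ppbp made up 54.1%, 33.8%, 36.2% and 52.8% of the counts on the 10 genes in HADA replicates 1 to 4, and 45.1%, 1.47%, 4.71% and 17.4% in control replicates 1 to 4. Control replicate 1 thus looked like the HADA libraries in this respect, while in control replicates 2 and 3 Pf4 took 58.3% and 61.2% of the member counts and Ppbp nearly none. The 95% Wilson intervals for Ppbp were 1.05% to 2.07% in control replicate 2 and 42.2% to 48.1% in control replicate 1. They treat each count as independent, and the error from copying few cDNA molecules was not tested.

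Per kb of gene span, the ratio of Ppbp to Pf4 was 1.09, 0.645, 0.736 and 1.83 in HADA and 2.37, 0.0155, 0.0472 and 0.444 in control. It spanned a 2.84-fold range in HADA and a 153-fold range in control. Pf4 and Ppbp together were steadier, at 66.1% to 84.6% of the member counts in HADA and 41.5% to 65.9% in control, where Clec1b took 9.28% to 30.8%, against 2.64% to 7.22% in HADA. The ratio of Gp9 to Pf4 per kb was 0.0572 to 0.101 in HADA and lower in every control library, at 0.00177 to 0.0490.

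**Figure D3:**
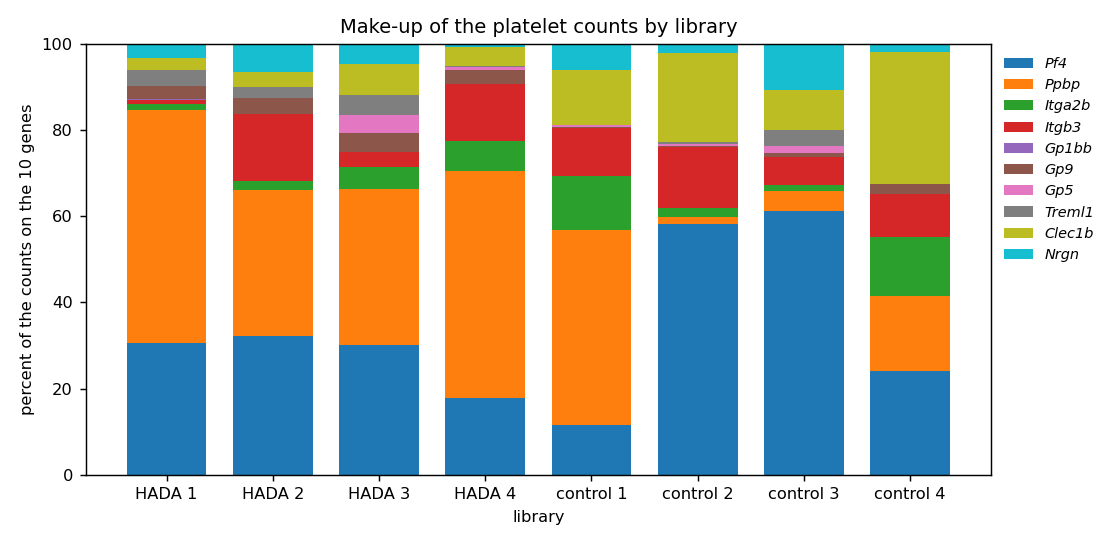
Make-up of the platelet counts in each library, with a stacked bar per library along the horizontal axis and the percent of the counts on the 10 genes that falls on each gene on the vertical axis. The Ppbp segment is 33.8% to 54.1% high in the HADA bars and in control replicate 1 (45.1%), and 1.47% in control replicate 2.

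Set against the receptor gene density of the same library (the heat map of these folds), Pf4, Ppbp and Clec1b were above it in all 8 libraries. Counts per kb of span on Pf4 were 680 to 2840 times that density in HADA and 124 to 1688 times in control. Ppbp was 439 to 4786 times the density in HADA, and 4006, 1.92, 8.31 and 308 times in control replicates 1 to 4. Clec1b was 5.76 to 52.5 times the density in HADA and 2.11 to 146 times in control. Gp9 stayed 44.1 times above it or more in HADA, but was at 0.219 times and 1.64 times in control replicates 2 and 3. In those control libraries a level of 2 times or less is near what genes of this background set show.

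Itga2b lay below the density in control replicates 2 and 3, at 0.265 and 0.202 times, and Treml1 was below it in control replicates 1, 2 and 4. Of the 10 members, 2, 7, 3 and 3 were below the receptor density in control replicates 1 to 4. In HADA replicates 1 to 4 these numbers were 1, 2, 1 and 0, so that control replicate 2 stood apart. They include Gp1bb in every control library and in HADA replicates 2 and 3, although most of its span was not counted for it. In control replicate 1 the density was only 0.0793 counts per kb, so the 0 counts of Treml1 there cannot be told from background. In HADA replicate 4, Treml1 was at 1.03 times the density. The part of this background in the members' differences was not tested beyond the subtraction given above.

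**Figure D4:**
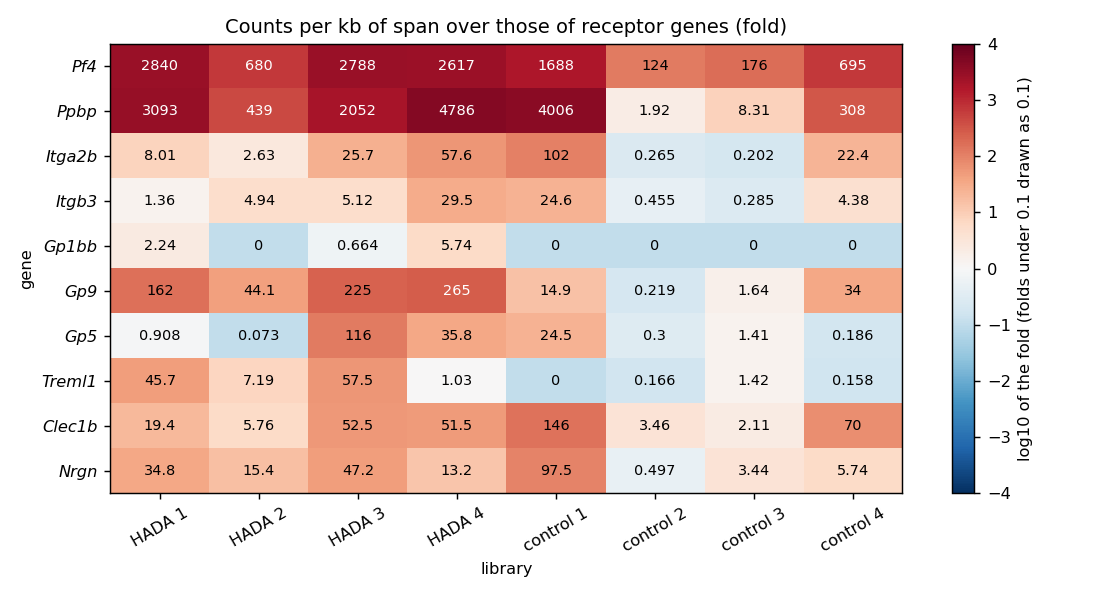
Counts per kb of gene span of each platelet gene divided by the density on receptor genes of the same library, as a heat map on a log colour scale with genes in rows and libraries in columns. Pf4 exceeds the density by 124 times or more in all 8 libraries, and 7 of the 10 genes, Gp1bb among them, lie below it in control replicate 2.

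Across the 8 libraries the members moved together only in part. Of their 36 pairs, 33 had a Pearson correlation above 0 in log2 CPM, with a median of 0.59 and a range from -0.17 between Itgb3 and Treml1 to 0.95 between Pf4 and Gp9. These describe 8 points that share depth and the make-up of each library, and the group difference is part of them. The mean log2 CPM of the 9 tested members was 5.68, 3.93, 6.76 and 5.80 in HADA and 4.22, 1.04, 1.99 and 4.01 in control, so that HADA replicate 2 stood just below control replicates 1 and 4.

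The genes whose profile was most like that mean, among 8836 genes with a mean log2 CPM of at least 3, were Sptbn1, a spectrin of the membrane skeleton, and Hmgn5, a chromatin protein, both at a Pearson r of 0.985 over 8 libraries. Peli1 (0.976), Skap1 (0.974), Spcs2 (0.972), the pseudogene Gpx4-ps2 (0.972), Uri1 (0.971) and Slbp (0.971) followed. Peli1 and Skap1 are known from lymphocyte signalling, and none of the 8 is a gene of the platelet lists. None passed the thresholds in edgeR (adjusted p from 0.129 to 0.267). Reads of Gpx4-ps2 may belong to its parent gene and its value is uncertain.

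The rest of the platelet programme was read on 67 further genes of platelets and megakaryocytes, sorted by role, of which 61 were tested. F2r was the only one of the 61 that passed in edgeR with HADA higher, against 1.65% of all genes tested. Its product is a receptor that mouse platelets do not use, as given below. None passed with HADA lower, against 0.477%. At an unadjusted p below 0.05, 11 were higher and none lower, against 12% and 14.7% of all genes tested. DESeq2 called 11 higher and 1, Rab27b, lower, against 11.2% and 19.3%. The median log2 fold change of the 61 genes was 0.88, against 0.01 over all genes tested. Of the 61, 48 were above 0, against 50.2% of all genes tested. Without control replicates 2 and 3 the median of the 61 was 0.54, against 0.21 over all genes. In 10 of them every HADA library was above every control, and in 1, Serpine2, below, which can be read against the 9.13% and 5.70% of all genes tested. Without control replicate 1 the edgeR count was 17 higher, against 15.5% of all genes in that fit, and it was 0 when any other library was left out.

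Among the 9 receptors of the G protein-coupled and ion channel kind, 5 were tested and their median log2 fold change was 3.34. F2r encodes PAR1, a thrombin receptor that human platelets use and mouse platelets do not, and which other cells also carry. It was at 29.1, 29.0, 36.5 and 62.4 CPM in HADA and at 4.97, 2.50, 1.29 and 1.16 CPM in control, with no overlap. The log2 fold change was 4.05 with a standard error of 0.90 (edgeR, adjusted p = 0.0408). P2rx1, an ATP-gated channel, was at 47.1 ± 16.3 CPM (SD, n = 4) in HADA and 4.94 ± 7.49 CPM in control (edgeR, adjusted p = 0.115).

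The other receptors of this list that carried the most counts differed less. Tbxa2r, the thromboxane receptor, had a log2 fold change of 0.44 (edgeR, adjusted p = 0.869), and Ptger3, a prostaglandin E2 receptor, of 0.93 (edgeR, adjusted p = 0.451). P2ry12, for ADP, and F2rl2, for thrombin, were listed at 0 in every library. Their spans are fully covered by other genes, so P2ry12 and F2rl2 could not be read. P2ry1 and F2rl3, also of this list, are named after their values were seen. P2ry1 had a log2 fold change of 4.08 (edgeR, adjusted p = 0.0896), and the DESeq2 adjusted p was 0.00253. Its groups overlapped, and another gene covers part of its span. F2rl3 had 1, 8, 5 and 0 counts in HADA and 0, 2, 2 and 2 in control, and it was not tested. No other gene covers the F2rl3 span.

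Of the other surface receptors, 13 of 14 were tested, none passed in edgeR and their median log2 fold change was 0.64. Cd9, a tetraspanin of platelets and many leukocytes, was at 728 ± 318 CPM (SD, n = 4) in HADA and 170 ± 185 CPM in control (edgeR, adjusted p = 0.227). Fcer1g, the signalling chain of GPVI and of Fc receptors on myeloid cells and basophils, was at 607 ± 234 CPM in HADA and 54.5 ± 64.1 CPM in control, a log2 fold change of 3.48 (edgeR, adjusted p = 0.116). Itgb1, the β1 integrin, had a log2 fold change of 1.01 (edgeR, adjusted p = 0.384).

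All 14 granule and secretion genes were tested, none passed in edgeR, and 9 of the 14 had a log2 fold change above 0, with a median of 0.64. Srgn, the proteoglycan core of granules in platelets and leukocytes, had the highest CPM of the list, at 2124 ± 241 CPM (SD, n = 4) in HADA and 1335 ± 920 CPM in control (edgeR, adjusted p = 0.498). Other genes cover 58.0% of the Srgn span, so its level may be incomplete. Vamp8, a membrane fusion protein of granule release, had a log2 fold change of 1.85 (edgeR, adjusted p = 0.257). Thbs1, thrombospondin of the α-granule, had one of -0.91 (edgeR, adjusted p = 0.630), with its highest level, 285 CPM, in control replicate 4.

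The 12 signalling genes had a median log2 fold change of 0.69 and none passed in edgeR. Gng11, a G protein subunit, was at 511, 173, 521 and 512 CPM in HADA and at 73.3, 26.2, 1.68 and 52.3 CPM in control. Its groups did not overlap, and the adjusted p in edgeR was 0.0876. Rap1b, the small GTPase of integrin activation, had a log2 fold change of 0.59 (edgeR, adjusted p = 0.624), and Syk, the kinase downstream of CLEC-2 and GPVI, of -0.07 (edgeR, adjusted p = 0.967).

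None of the 8 cytoskeletal genes passed in edgeR, and their median log2 fold change was 1.27. The myosin light chain gene Myl9 was at 145 CPM in HADA and 16.9 CPM in control on average (edgeR, adjusted p = 0.203), but at 0.754 CPM in HADA replicate 2. Bin2 had a log2 fold change of 0.98 (edgeR, adjusted p = 0.506) and the myosin kinase gene Mylk of -0.01 (edgeR, adjusted p = 0.993). Tubb1, the β1 tubulin of the platelet marginal band, is named after its values were seen, and its level was 6.93 CPM in HADA and 39.2 CPM in control on average (edgeR, adjusted p = 0.311).

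Of the 10 megakaryocyte transcription factors, 9 were tested, none passed in edgeR and the median log2 fold change was 1.18. Fli1, an ETS factor that T cells also express, was at 847 ± 113 CPM (SD, n = 4) in HADA and 1001 ± 402 CPM in control (edgeR, adjusted p = 0.797). Runx1 (log2 fold change 0.59) and Mef2c (1.18) did not pass either (edgeR, adjusted p = 0.596 and 0.324). Other genes cover 28.6% of the Mef2c span and 13.3% of the Fli1 span, so these levels may be incomplete. Gfi1b, a repressor of the megakaryocyte and erythroid lineages named after its values were seen, was at 16.5, 13.3, 29.0 and 6.07 CPM in HADA and at 3.11, 0.626, 0.699 and 0.637 CPM in control, with no overlap (edgeR, adjusted p = 0.0529).

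The genes that platelets meet on leukocytes and other cells were looked at in the same way, and 11 of 12 were tested, with none past the thresholds in edgeR and a median log2 fold change of 1.52. Selplg, which encodes the P-selectin ligand PSGL-1, was at 330, 307, 876 and 1370 CPM in HADA and at 443, 2.10, 4.12 and 338 CPM in control (edgeR, adjusted p = 0.349). Control replicates 2 and 3 were again the low libraries. Cd44 and Itgal, the α subunit gene of LFA-1, had log2 fold changes of 0.89 and 0.45 (edgeR, adjusted p = 0.460 and 0.774).

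Marker genes of other blood cells were read beside the platelet genes. Of 8 Treg markers 7 had counts, and Foxp3, whose span is fully covered by other genes, was listed at 0 in every library, as were the erythroid marker Alas2 and the B cell marker Ms4a1, which are covered in the same way. The Treg list held 0.188% to 0.357% of the counts in HADA and 0.0683% to 0.182% in control, with no overlap. Of its 7 tested genes all had a log2 fold change above 0, at a median of 1.83, and none passed in edgeR. The part of Treg RNA content in the platelet values was not tested.

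Erythroid markers had the opposite order, at 0.00978% to 0.252% of the counts in HADA and 0.227% to 3.09% in control, with the 3.09% in control replicate 1. Of the 6 erythroid genes tested none passed in edgeR, all 6 were lower at an unadjusted p below 0.05 against 14.7% of all genes tested, and their median log2 fold change was -3.65. Myeloid markers held 0.0528% to 0.263% in HADA and 0.0115% to 0.184% in control, and B cell markers 0.181% to 0.398% and 0.0448% to 0.549%. Cytotoxic T and NK markers held 0.00710% to 0.0585% in HADA and 0.00170% to 0.0115% in control, and of their 6 tested genes Cd8b1 passed in edgeR. No myeloid or B cell marker passed. The ranges overlap in each of these lists, and their part in the platelet values was not tested.

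Basophil and mast cell markers held 0.0267% to 0.0725% of the counts in HADA and 0.00375% to 0.0590% in control. Of this list, 6 genes were tested and Fcer1a, the IgE-binding chain of the high-affinity IgE receptor, passed in edgeR, at 100 ± 58.8 CPM (SD, n = 4) in HADA and 3.51 ± 3.47 CPM in control (log2 fold change 4.91, adjusted p = 0.0319). Basophils also use Fcer1g and the factors GATA1 and GATA2, which stand in the platelet lists, and the part of this cell type in those values was not tested.

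**Figure D5:**
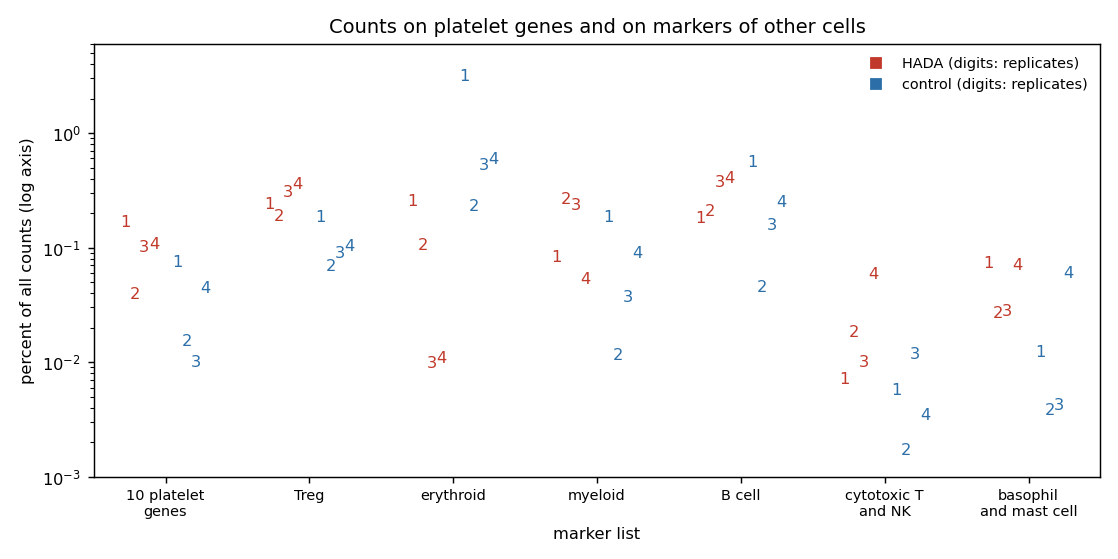
Percent of all counts, on a log axis, that fell on the platelet members and on marker lists of Tregs, erythroid, myeloid, B, cytotoxic and basophil or mast cells, with a point per library in HADA and control colours. The platelet members hold 0.0387% to 0.167% in HADA and 0.00997% to 0.0736% in control, and the erythroid list reaches 3.09% in control replicate 1.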

How the data were processed

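RNA of Tregs sorted by CD4 and CD25 was turned into cDNA with a low-input kit and sequenced, giving 4 HADA and 4 control libraries. Per the labels and the methods, the authors used FastQC and Trimmomatic on the reads, STAR for alignment to GRCm39 and featureCounts for counting. The deposited values are raw counts that were not normalized, and the strand and multi-mapping settings are not given in the sources used here. Counted lengths equal gene spans for 100% of the genes, so introns are counted, and overlapping or antisense genes are uncertain. Names came from GENCODE vM39 for 56236 of 56980 identifiers (98.7%), of which 60.6% have the same coordinates. Printed gene coordinates are those of the deposited table.

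Groups and replicate numbers came from the labels. Same-numbered libraries deviated together in only part of the sets (correlations from -0.207 to 0.252), and they were treated as unpaired. Genes were tested with edgeR 4.0.16 under R 4.3.3, using TMM factors, its filterByExpr filter and the quasi-likelihood test with no covariate, and a call needed both an adjusted p (Benjamini-Hochberg) under 0.05 and a change past 1 on the log2 scale, up or down. The prior count for log2 CPM was 2. The study's methods name DESeq2, and version 1.42.0 was run as an alternative. The alternatives were DESeq2's size factors and test, limma 3.58.1 with pseudocounts of 1 and 0.1, skipping the filter or asking for 10 counts in every library, random thinning to the smallest total (seed 1), subtracting the receptor gene density, using the unadjusted p, dropping the fold threshold, a block for the replicate number, and omitting each library in turn. Leaving out control replicates 2 and 3 together was chosen after seeing the data. Scripts were tested on simulated data. With the spread between libraries set as in these data, edgeR recovered few of the changed genes, and many of DESeq2's calls were false. Python 3.11.15 wrote tables and figures with scipy 1.17.1, numpy 2.4.6, pandas 2.3.3, pysam 0.24.0 and matplotlib 3.10.9.

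The members and the gene lists were chosen with earlier results of these data known. The text names every member, the genes past the thresholds in the lists of other platelet genes, megakaryocyte factors and partners, up to 3 others of each list with the highest mean CPM, and the 8 genes most like the members. Genes named outside this rule are said to be, or are markers of other cells.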

Additional observations from a re-analysis of the deposited data

Results flagged for a closer look

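Within the HADA libraries, 1 value stood apart from its group. Gp9 in HADA replicate 2 was at a log2 CPM of 3.80, against 5.76 to 6.03 in the other HADA libraries, and its gap to the nearest of them was 0.882 of the whole range of the group, above Dixon's critical value for 4 samples. It was the lowest HADA library for Gp9 and still above the highest control. Of 22 group values looked at in this way, 1 was beyond the critical value, and chance alone gives about 1 in 20.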

How the results depend on the processing

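The edgeR counts over all genes, 363 higher and 105 lower in HADA, moved with most settings. The higher count was 2457 in DESeq2, 814 in limma on log2(CPM + 1), 93 with at least 10 counts in every library, 136 with libraries drawn down, 113 with the receptor density subtracted, 33 without control replicates 2 and 3, 2647 at an unadjusted p, and 28 to 3716 with each library left out. The lower count was 4247 in DESeq2, 30 in limma on log2(CPM + 0.1), 54 without a filter, 0 without control replicates 2 and 3, 3233 at an unadjusted p, and 1 to 4732 with each library left out. Calls were higher in HADA in 77.6% of edgeR's and 36.6% of DESeq2's. With the replicate number as a block, 158 genes were higher and 11 lower, no member and none of the other platelet genes passed, and not every library correlated best with its own number.

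Of the members, where edgeR called 0, DESeq2 called 4, limma on log2(CPM + 1) 1, an unadjusted p 4, and the fits without one library 0 to 2, the 2 being without control replicate 1. Of the other platelet genes, where edgeR called 1 higher, DESeq2 called 11 higher and 1 lower, limma 6 on log2(CPM + 1) and 3 on log2(CPM + 0.1), an unadjusted p 11, and the fits without one library 0 to 17. That count was 0 with libraries drawn down, with the receptor density subtracted and without control replicates 2 and 3. The direction of Itga2b turned to -0.018 when libraries were drawn down, -0.49 without control replicates 2 and 3 and -0.073 without HADA replicate 4, in a range of -0.073 to 1.21 over the fits without one library. That of Clec1b turned to 0.41 and 0.44 in limma with pseudocounts of 1 and 0.1, 0.0077 without a filter, 0.16 with the replicate block, 0.24 without HADA replicate 2, 0.05 without control replicate 1 and 0.83 without control replicate 4, in a range of -0.56 to 0.83 over the fits without one library. The causes were not tested.

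The other 7 tested members kept their direction under every alternative in which they were tested. Requiring 10 counts left 6 members and drawing down left 7. The all-gene median of the log2 fold change moved from 0.01 to 1.0 with the receptor density subtracted, 0.31 and 0.13 in limma, -0.19 with DESeq2's size factors and -0.37 without a filter. The members' share of counts was higher in HADA by 0.0672 percentage points, with 0.0458 to 0.0886 over the fits without one library. In control replicate 1, a level under 1.86 CPM rests on fewer than 3 counts.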
